A study of Mus musculus with 6 samples.

Results

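Chemokine genes of mouse liver were followed in livers with and without a hepatocyte deletion of Mettl3, which encodes the catalytic subunit of the m6A RNA methyltransferase. The set held 10 genes chosen by name, 5 of the CC family (Ccl2, Ccl4, Ccl5, Ccl6 and Ccl9) and 5 of the CXC family (Cxcl1, Cxcl9, Cxcl10, Cxcl12 and Cxcl16). Each matched 1 row of a table of 54086 annotated features.

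Chemokines are small secreted proteins that bind G-protein-coupled receptors on leukocytes and direct where those cells move and settle. Some are made steadily by stromal and endothelial cells, while others are induced by interferon gamma, tumour necrosis factor or interleukin 1 in macrophages, endothelium and hepatocytes. In liver they are known for drawing monocytes, neutrophils and lymphocytes into the sinusoids.

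Poly-A RNA of whole liver was sequenced from Mettl3 flox/flox mice, in which the Mettl3 gene is flanked by recombination sites, and from mice labelled HKO, the hepatocyte-specific Mettl3 knockout, with 3 libraries of each. All mice were 8 weeks old and on normal chow. The promoter that drives the recombinase, the sex and the strain were not given in the sources used here, nor whether libraries came from different mice, so the p-values reflect variation among libraries that may be technical. Values are FPKM, that is fragments counted for a gene divided by its length and by a depth factor the authors chose, and series of 3 values are always in the order of replicates 1, 2 and 3.

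Reads rebuilt from the FPKM values ran from 16529358 to 18556076 per library. Mettl3 itself stood at 1.88, 2.17 and 1.98 FPKM in flox/flox livers and at 2.45, 2.14 and 2.06 FPKM in HKO liver, and did not pass the test (limma adjusted p = 0.582). A value for the whole gene does not test the loss of an exon, so the genotype was not checked by it and HKO stands for the libraries labelled so. All 9 hepatocyte markers were detected in every library, with a summed level of 50731 to 84267 FPKM in flox/flox livers and 26925 to 47966 FPKM in HKO liver.

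In HKO liver, 5 of the chemokine genes rose and 1 fell. Cxcl10, Cxcl9, Ccl5, Ccl2 and Ccl6 were 3.01 to 14.6 times as high in mean FPKM, with the upper end set by Ccl2 in HKO replicate 1 (7.52-fold without it), and Cxcl12 dropped from 42.4 ± 8.16 to 22.4 ± 3.28 FPKM (SD, n = 3). Ccl9, Cxcl1 and Cxcl16 did not pass the test, and Ccl4 was too low to be tested. The test was limma with an intensity trend on log2(FPKM + 1), over the 11086 features whose mean reached 1 FPKM, and a call needed a Benjamini-Hochberg adjusted p under 0.05. Of all features tested, 12.8% were called, 5.95% as higher and 6.86% as lower in HKO (660 and 761 features). That split depended on the scaling: a common FPKM sum per library gave 3128 higher and 189 lower, and median-of-ratios scaling 750 and 495. The median log2 change was 1.51 over the 9 chemokine genes tested, beside -0.06 over all features. Cxcl10, Ccl5 and Ccl2 lay under 1 FPKM in flox/flox liver and entered the test only through their HKO values, so the counts and the median are a description of the set and not evidence for it. Without a filter on low values 2 of the 10 genes were called, Cxcl10 and Ccl4, where 1.97% of 25877 features were.

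The calls also rested on the number of libraries. Leaving out 1 library at a time left between 0 and 4 of the chemokine genes past the threshold. No chemokine gene passed without flox/flox replicate 3, HKO replicate 1 or HKO replicate 2, where 0.271%, 0.541% and 1.08% of all features passed. Only Cxcl10 passed without flox/flox replicate 2, where 3.32% of features did, and Ccl9 and Cxcl10 passed without HKO replicate 3, where 3.66% did. Without flox/flox replicate 1 there were 4, where 13.1% of features passed. No chemokine gene changed direction in any of these fits.

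**Figure D1:**
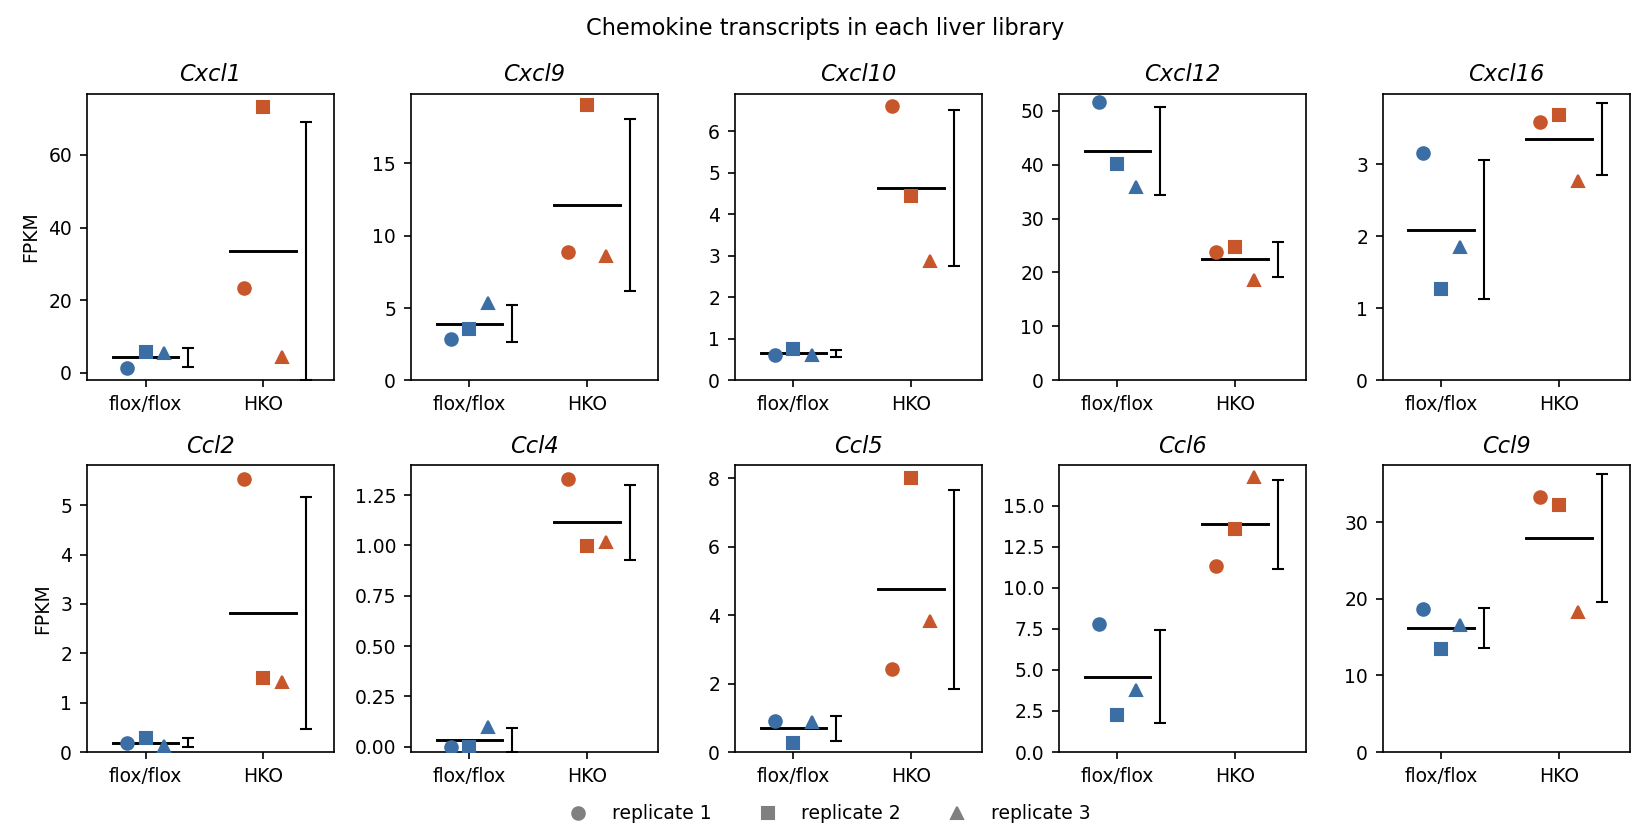
FPKM of the 10 chemokine genes in each library (points), with the mean of each group of 3 as a horizontal line and its SD as an error bar. The groups are apart for Cxcl10, Cxcl9, Ccl5, Ccl2, Ccl4 and Ccl6, which are higher in HKO, and for Cxcl12, which is lower, while Ccl9, Cxcl1 and Cxcl16 overlap.

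Where the groups lay apart, all 3 HKO values stood on the same side of all 3 flox/flox values. That held for 6 genes as higher and 1 as lower in HKO. Among 18592 features with at least 10 reads in all, 36.8% were apart, 19.6% as higher and 17.2% as lower. An exact two-sided permutation test of a single gene with 3 libraries against 3 cannot go below p = 0.1, the value each of these 7 genes reached.

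The sequence just before the gene start is shown for the 4 called genes that had an entry among the RefSeq promoters (GRCm38.p6). Letters that resemble the sites of the inducing factors can so be read beside the levels. These factors are NF-kappaB, the mediator of tumour necrosis factor and interleukin 1 signals, and the interferon factors of the IRF family. Capitals mark matches on either strand to a kappaB-like motif, GGG and CC with any 5 bases between them, or to an interferon response element-like motif, GAAA repeated after any 2 bases. Each line gives 250 bases, 5′ to 3′ on the gene's strand. Cxcl10 lies at chr5:92348890-92349139 (minus strand), Cxcl9 at chr5:92328080-92328329 (minus strand), Ccl6 at chr11:83593088-83593337 (minus strand) and Cxcl12 at chr6:117168285-117168534 (plus strand).
Cxcl10: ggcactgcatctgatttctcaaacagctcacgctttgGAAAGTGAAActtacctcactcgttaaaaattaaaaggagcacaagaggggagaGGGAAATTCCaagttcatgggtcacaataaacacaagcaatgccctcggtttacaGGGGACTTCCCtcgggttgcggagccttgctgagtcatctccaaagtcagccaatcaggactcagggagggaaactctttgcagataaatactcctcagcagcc
Cxcl9: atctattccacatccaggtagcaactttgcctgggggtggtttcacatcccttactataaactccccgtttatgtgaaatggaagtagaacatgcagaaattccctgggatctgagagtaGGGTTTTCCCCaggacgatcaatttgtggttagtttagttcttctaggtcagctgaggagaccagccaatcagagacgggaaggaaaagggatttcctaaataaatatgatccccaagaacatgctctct
Ccl6: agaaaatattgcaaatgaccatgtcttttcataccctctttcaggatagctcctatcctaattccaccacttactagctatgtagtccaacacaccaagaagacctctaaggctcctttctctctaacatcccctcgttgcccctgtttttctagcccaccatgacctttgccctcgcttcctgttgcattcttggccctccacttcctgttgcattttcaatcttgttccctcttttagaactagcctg
Cxcl12: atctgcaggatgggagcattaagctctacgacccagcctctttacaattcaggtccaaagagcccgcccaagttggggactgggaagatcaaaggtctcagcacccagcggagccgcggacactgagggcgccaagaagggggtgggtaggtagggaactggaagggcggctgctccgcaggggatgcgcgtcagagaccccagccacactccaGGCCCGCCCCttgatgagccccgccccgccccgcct

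The Cxcl10 stretch held the interferon-type match from -213 to -204, counted back from the gene start, and kappaB-like matches from -159 to -150 and from -104 to -94, where a pair of matches overlap. Cxcl9 held overlapping kappaB-like matches from -130 to -120, Cxcl12 held 1 from -36 to -27 on the opposite strand, and Ccl6 held none of either motif. Of 32851 RefSeq promoters of that length, 45.8% held the kappaB-like motif and 2.98% the interferon-type motif. Over the 6 chemokine genes with an entry, which include Cxcl1 and Ccl9, 5 held the first and 1 held the second. A narrower kappaB form, GGG and TTCC with any 3 bases between them, every match of which is also a match to the broad form, was held by Cxcl1, Cxcl10 and Ccl9 and by 4.65% of promoters. TTCNNNGAA, the letters of an interferon gamma-activated site, was in none of the 6 and in 7.02% of promoters. A match is a run of letters and was not tested for binding.

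Cxcl10 and Cxcl9, the interferon gamma-induced ligands of CXCR3 on activated T cells and NK cells, both rose. Cxcl10 (ENSMUSG00000034855, chr5:92346638-92348889, minus strand) stood at 0.601, 0.752 and 0.613 FPKM in flox/flox livers and at 6.61, 4.45 and 2.87 FPKM in HKO liver. The flox/flox libraries lay close together at 20, 26 and 21 reads, and the lowest HKO library had 144 reads. The mean went from 0.655 ± 0.0839 to 4.64 ± 1.88 FPKM (SD, n = 3), or 7.08-fold, with a log2 change of 1.72 ± 0.24 (SE, limma adjusted p = 0.0168). With 1 library left out the adjusted p ran from 0.0193 to 0.0587, above the threshold without flox/flox replicate 3, HKO replicate 1 or HKO replicate 2. Cxcl10 lies within Art3 on the other strand, and Art3 held 0.387 ± 0.10 and 0.354 ± 0.151 FPKM. Whether counting used strand was not given in the sources used here.

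Cxcl9 (ENSMUSG00000029417, chr5:92321347-92328079, minus strand) measured 2.87, 3.52 and 5.38 FPKM in flox/flox livers and 8.88, 19.0 and 8.57 FPKM in HKO liver. All HKO libraries were above the highest flox/flox library, and HKO replicate 2 stood well above the rest. Its mean went from 3.92 ± 1.30 to 12.2 ± 5.94 FPKM, 3.10-fold, with a log2 change of 1.36 ± 0.33 (limma adjusted p = 0.043). The gene missed the threshold whichever library was left out, with adjusted p from 0.0743 to 0.0929 and log2 changes from 1.01 to 1.56. The remaining gene of a CXCR3 ligand in the same cluster, Cxcl11, is annotated here as a polymorphic pseudogene. It measured 0.375 ± 0.255 and 0.433 ± 0.0596 FPKM and was under the filter.

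Ccl2, Ccl5 and Ccl4 are inflammatory CC chemokines: Ccl2 draws monocytes through CCR2, and Ccl4 and Ccl5 draw T cells, NK cells and macrophages. Ccl2 (ENSMUSG00000035385, chr11:82035571-82037453, plus strand) had 3, 5 and 2 reads in flox/flox and 122, 31 and 36 reads in HKO liver, which are 0.178, 0.286 and 0.115 FPKM against 5.54, 1.49 and 1.42 FPKM. The gene was near the limit of detection in flox/flox, and HKO replicate 1 stood well above the other HKO libraries. Mean FPKM was 0.193 ± 0.0863 and 2.82 ± 2.36, 14.6-fold apart and 7.52-fold without HKO replicate 1, and the log2 change was 1.51 ± 0.38 (limma adjusted p = 0.0488). This call was close to the threshold: it was lost with every library left out in turn, with adjusted p from 0.0611 to 0.122, and under quantile normalization at 0.0709.

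Ccl5 (ENSMUSG00000035042, chr11:83525778-83530518, minus strand) read 0.917, 0.271 and 0.890 FPKM in flox/flox livers and 2.42, 7.99 and 3.83 FPKM in HKO liver. The groups did not overlap, and HKO replicate 2 was again the highest. On 13, 4 and 13 reads against 45, 140 and 82, the mean went from 0.693 ± 0.365 to 4.75 ± 2.89 FPKM, 6.85-fold, with a log2 change of 1.67 ± 0.36 (limma adjusted p = 0.0349). Without HKO replicate 2 the ratio of means was 4.51. Leaving out any library gave adjusted p from 0.0505 to 0.0881.

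Ccl4 (ENSMUSG00000018930, chr11:83662584-83664683, plus strand) had 0, 0 and 1 read in flox/flox and 17, 12 and 15 reads in HKO liver. It was nearly undetected in flox/flox and had at least 12 reads in each HKO library, near 1 FPKM. With 1 read against 44, the ratio of summed reads after scaling was 33.3, with an exact 95% interval of 5.67 to 1345 that covers counting error only. Its mean was under the filter. With a filter at a mean of 0.1 FPKM, under which 7.5% of features were called, the log2 change was 1.03 (limma adjusted p = 0.0161), and with no filter the adjusted p was 0.0311.

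Ccl6 and Ccl9 are rodent CC chemokines of myeloid cells that act on CCR1, and they lie side by side on chromosome 11, 9245 bases apart. Ccl6 (ENSMUSG00000018927, chr11:83587882-83593087, minus strand) measured 7.77, 2.25 and 3.77 FPKM in flox/flox livers and 11.3, 13.6 and 16.7 FPKM in HKO liver. The groups were apart, and flox/flox replicate 1 stood closest to the HKO range. The mean went from 4.60 ± 2.85 to 13.9 ± 2.71 FPKM, 3.01-fold, with a log2 change of 1.51 ± 0.35 (limma adjusted p = 0.0403). Without flox/flox replicate 1 the ratio of means was 4.60 and the call held, at 0.0198. It did not hold with any other library left out, and the adjusted p ran up to 0.117.

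Ccl9 (ENSMUSG00000019122, chr11:83572919-83578636, minus strand) was the second most abundant of the set in flox/flox liver, at 18.7, 13.4 and 16.5 FPKM, and measured 33.2, 32.2 and 18.3 FPKM in HKO liver. HKO replicates 1 and 2 were above all flox/flox libraries, but HKO replicate 3 fell inside their range, just under flox/flox replicate 1. Means were 16.2 ± 2.63 and 27.9 ± 8.36 FPKM, and the log2 difference of 0.71 (95% interval 0.12 to 1.31) did not pass (limma adjusted p = 0.0993). Without HKO replicate 3 the adjusted p was 0.045.

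Cxcl1, a ligand of CXCR2 that draws neutrophils, varied most within a group. Cxcl1 (ENSMUSG00000029380, chr5:90891241-90893115, plus strand) measured 1.34, 5.77 and 5.54 FPKM in flox/flox livers and 23.3, 73.2 and 4.42 FPKM in HKO liver. HKO replicate 2 was 16.5 times HKO replicate 3, which lay within the flox/flox range. Means were 4.21 ± 2.49 and 33.6 ± 35.5 FPKM, and the log2 difference of 2.19 had a 95% interval of -0.03 to 4.41 (limma adjusted p = 0.152). Without HKO replicate 2 the ratio of means was 3.29 in place of 7.98. It passed under none of the 16 alternative fits. Cxcl2, another CXCR2 ligand, had 6, 1 and 2 reads in flox/flox and 65, 22 and 12 reads in HKO liver, 8.32-fold on summed reads (95% interval 4.21 to 18.7), and was under the filter.

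Cxcl12 was the chemokine gene of the set that fell. Its product, made by stromal, endothelial and other resident cells, holds CXCR4-bearing cells in tissues and is also bound by the scavenging receptor ACKR3. Cxcl12 (ENSMUSG00000061353, chr6:117168535-117181367, plus strand) measured 51.5, 40.0 and 35.8 FPKM in flox/flox livers and 23.8, 24.8 and 18.7 FPKM in HKO liver, on 3408 to 6223 reads. The highest HKO library was below the lowest flox/flox library. The mean was 1.89 times as high in flox/flox, and the log2 change was -0.88 ± 0.18 (limma adjusted p = 0.0302). With 1 library left out the log2 change stayed at -0.74 or below and the adjusted p ran from 0.0401, without flox/flox replicate 1, to 0.0812, and no other library left out kept the call. Scaling the libraries to a common FPKM sum, which moved the median of all features from -0.06 to 0.34, gave Cxcl12 a log2 change of -0.40 (limma adjusted p = 0.0561).

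Cxcl16 is made as a membrane-bound ligand of CXCR6, a receptor of liver NKT and T cells, and is shed from the surface by the protease ADAM10. Cxcl16 (ENSMUSG00000018920, chr11:70453983-70459984, minus strand) measured 3.16, 1.27 and 1.85 FPKM in flox/flox livers and 3.59, 3.68 and 2.77 FPKM in HKO liver. HKO replicate 3 lay below flox/flox replicate 1, so the groups overlapped. The means were 2.09 ± 0.968 and 3.35 ± 0.50 FPKM, with a log2 difference of 0.53 (95% interval -0.02 to 1.08, limma adjusted p = 0.158). Without flox/flox replicate 1 the adjusted p was 0.0399. Cxcl16 shares 552 bases with Zmynd15 on the other strand, which measured 1.22 ± 0.277 and 1.36 ± 0.377 FPKM.

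**Figure D2:**
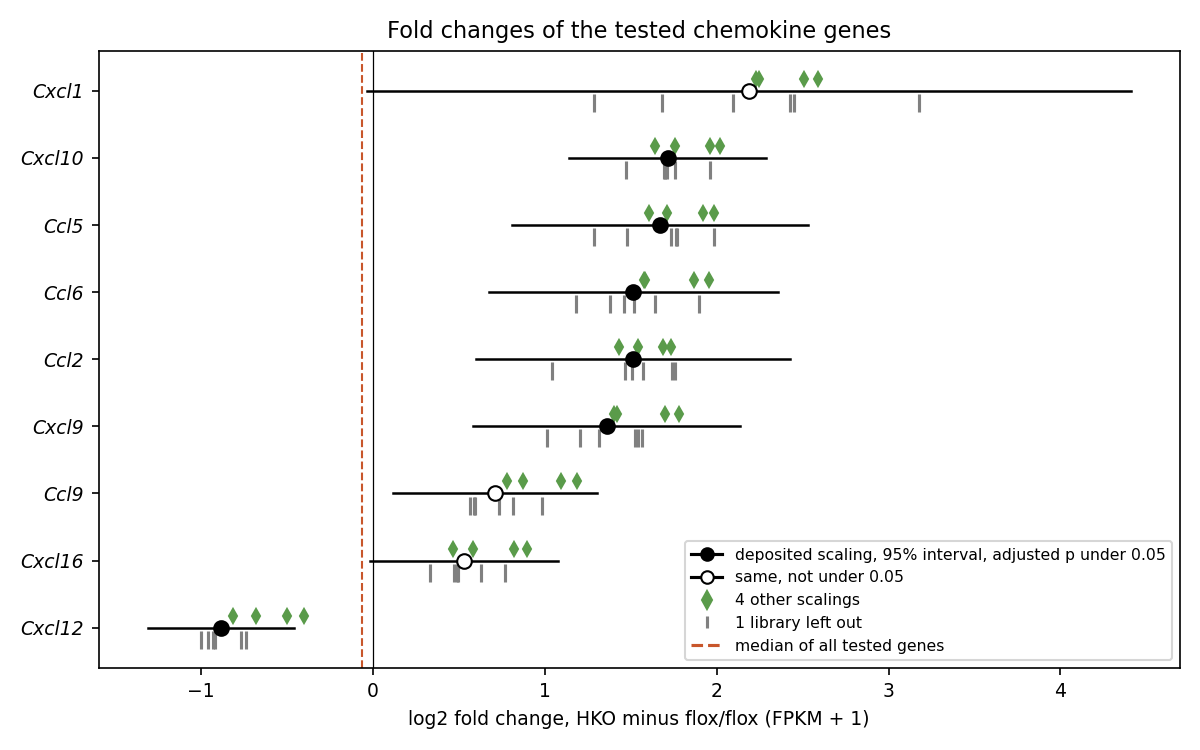
Log2 change of HKO against flox/flox on the log2(FPKM + 1) scale for the 9 chemokine genes tested, with 95% intervals, filled circles for adjusted p under 0.05, diamonds for 4 other scalings, ticks for 1 library left out and a dashed line at the median of all features. Cxcl10 is at 1.72 and Cxcl12 at -0.88, and the intervals of Cxcl1 and Cxcl16 cross 0.

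The order of the levels differed between the groups, on the FPKM scale, which is per length. In flox/flox liver Cxcl12 led, and Ccl9 followed with all libraries below those of Cxcl12. Ccl6, Cxcl1, Cxcl9 and Cxcl16 came next with ranges that overlapped from neighbour to neighbour, then Ccl5 and Cxcl10, which overlapped, then Ccl2 and Ccl4. In HKO liver Cxcl1 had the highest mean, though its range overlapped that of Ccl9, and Ccl9 overlapped Cxcl12. Below them came Ccl6 and Cxcl9, then Ccl5, Cxcl10, Cxcl16 and Ccl2, each overlapping the next, and Ccl4 was last. Cxcl12 made up 59.2%, 59.2% and 50.7% of the summed FPKM of the 10 genes in flox/flox and 19.8%, 13.7% and 23.8% in HKO liver. Without Cxcl12 the other 9 genes summed to 32.6 ± 4.39 FPKM in flox/flox livers and 104 ± 48.8 FPKM in HKO liver, with HKO libraries at 96.2, 157 and 59.9 FPKM.

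The HKO libraries did not rank alike across the set. HKO replicate 3 was the lowest of its group for 7 of the 10 genes, yet the highest for Ccl6. Ccl2, Ccl4, Ccl9 and Cxcl10 were highest in HKO replicate 1, and Ccl5, Cxcl1, Cxcl9, Cxcl12 and Cxcl16 in HKO replicate 2.

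Among 30 other chemokine ligands, 4 were abundant enough to test and 1 rose. That was Ccl24, a ligand of CCR3 that attracts eosinophils, at 1.05, 0.604 and 1.27 FPKM in flox/flox livers and 3.91, 3.00 and 3.05 FPKM in HKO liver. The groups were apart, with a log2 change of 1.14 (limma adjusted p = 0.0187, and 0.0291 to 0.0636 with 1 library left out). Like Cxcl10, Ccl24 averaged under 1 FPKM in flox/flox liver and entered the test through its HKO values. The other 26 were under the filter. Of the 15 among them with at least 10 reads in all, 7 had every HKO library above every flox/flox library and 0 had the reverse. For untested features with at least 10 reads those shares were 23.7% and 6.12%. Ccl7, a CCR2 ligand like Ccl2, had 0 reads in flox/flox and 16, 9 and 10 reads in HKO liver. Ccl22, a ligand of CCR4, had 2 reads in flox/flox and 48 in HKO liver. Of the others, Ccl1, Ccl19, Ccl21c, Ccl26 and Cxcl15 had no read in any library. Reads of near-identical copies, those of Ccl19 among themselves and those of Ccl21 among themselves, may be shared or left uncounted.

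None of the 18 chemokine receptor genes reached the filter, so they are given by reads and level. Of 14 with at least 10 reads, 8 had all HKO libraries above all flox/flox libraries and 0 the reverse. Among all untested features with at least 10 reads, 23.7% were apart as higher and 6.12% as lower. Ccr2, the receptor for Ccl2, had 14, 8 and 27 reads in flox/flox and 212, 131 and 98 reads in HKO liver, 6.81-fold on summed reads (95% interval 5.06 to 9.35, counting error only). This receptor stood higher in the same libraries as its ligand. Cxcr4, the receptor for Cxcl12, had 11, 4 and 8 reads in flox/flox and 66, 41 and 40 in HKO liver, 4.84-fold (3.10 to 7.87), the opposite direction to its ligand. Cxcr3, the receptor for Cxcl9 and Cxcl10, went from 11 to 64 summed reads, 4.40-fold after scaling for depth. Cxcr6, the receptor for Cxcl16, went from 19 to 61, 2.43-fold after scaling. Cxcr2, the receptor for Cxcl1, had 5 and 20 reads with overlapping groups, and Ackr3 had 40 and 58 reads, also overlapping.

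**Figure D3:**
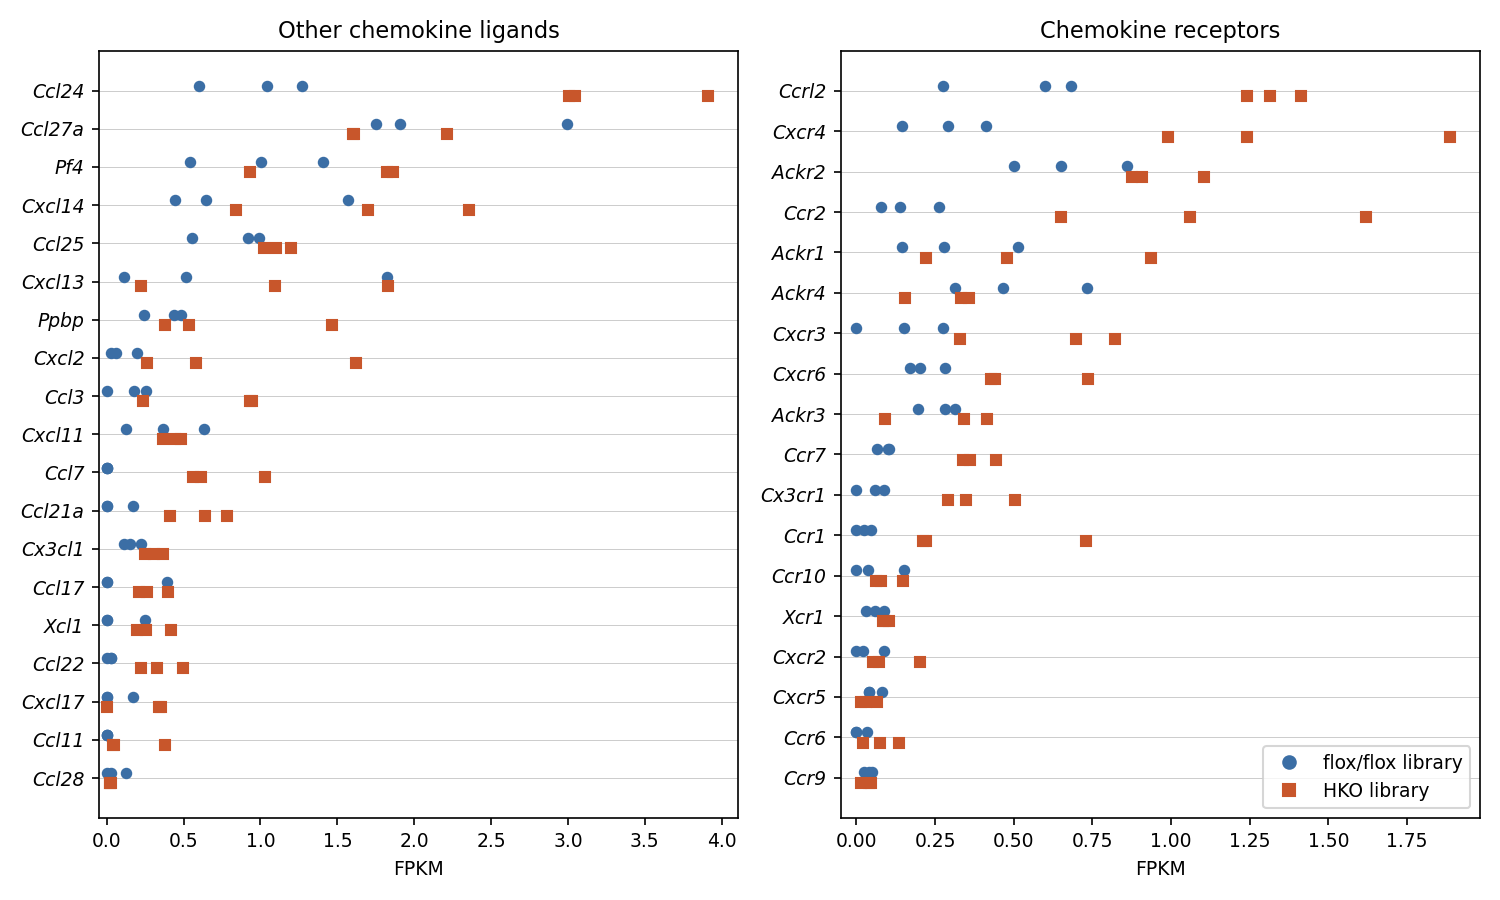
FPKM in each library of the other chemokine ligands (left) and of the typical and atypical chemokine receptors (right), for genes taken from those with at least 10 reads in all, with flox/flox libraries as circles and HKO libraries as squares. Ccl24, Ccr2 and Cxcr4 are higher in all 3 HKO libraries than in any flox/flox library, and Ackr3 and Cxcr2 overlap.

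Of the proteases that process chemokines, only Adam10, Adam17 and Dpp4 were listed, and all 3 were tested. Adam10, which sheds Cxcl16, went from 6.06 ± 0.329 to 8.74 ± 0.301 FPKM (log2 change 0.46, limma adjusted p = 0.0308), and Adam17 from 3.11 ± 0.147 to 4.94 ± 0.427 FPKM (0.53, adjusted p = 0.0276). Leaving out 1 library raised these to at most 0.097 and 0.0847. Dpp4, which trims Cxcl9, Cxcl10 and Cxcl12, stood at 21.4 ± 1.52 and 21.7 ± 2.53 FPKM and did not pass (adjusted p = 0.948). Its log2 difference of 0.02 ran from -0.05 to 0.11 with 1 library left out.

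Of 19 genes for cytokines, receptors and factors that induce chemokines, 14 were tested, 5 rose and 1 fell, with a median log2 change of 0.38. Over all features tested 5.95% were called higher and 6.86% lower, with a median of -0.06. Ifngr1, a subunit of the interferon gamma receptor, went from 6.98 ± 1.58 to 14.8 ± 1.51 FPKM (log2 change 1.0, limma adjusted p = 0.0215), and Irf1, a factor downstream of it, from 4.03 ± 0.821 to 8.68 ± 1.28 FPKM (0.95, adjusted p = 0.0227). Irf8 rose by 0.60 and the tumour necrosis factor receptor gene Tnfrsf1a by 0.53. Nfkb1, a subunit of NF-kappaB, rose by 0.40. Il1r1, the interleukin 1 receptor, fell by 1.01 on the log2 scale, from 19.2 ± 4.04 to 8.98 ± 1.21 FPKM (adjusted p = 0.0223). With 1 library left out, adjusted p ran up to 0.0726 for Ifngr1, 0.0723 for Irf1, 0.139 for Irf8, 0.0921 for Tnfrsf1a, 0.118 for Nfkb1 and 0.0756 for Il1r1. Irf8 and Nfkb1 passed in 0 of these 6 fits. Ifng itself had 0 reads in every flox/flox library and 0, 2 and 3 reads in the HKO libraries.

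Summed markers of Kupffer cells, monocytes, neutrophils, T cells and NK cells were higher in every HKO library than in any flox/flox library. Single markers were less uniform. Among those with at least 10 reads, 7 of 9 monocyte and 3 of 5 neutrophil markers had every HKO library above every flox/flox library. For T cells this held for 3 of 9 and for NK cells for 2 of 6, and the rest overlapped. Over all features with at least 10 reads it held for 19.6%. In whole liver a change in the number of cells of a type and a change in RNA per cell cannot be told apart. Of 12 Kupffer cell markers, all tested, 11 had every HKO library above every flox/flox library and 3 passed as higher, where 19.6% of features with at least 10 reads were apart as higher and 5.95% of tested features were called higher. Their summed level was 349, 91.6 and 208 FPKM in flox/flox livers and 445, 591 and 553 FPKM in HKO liver, and none was at 0. Marco, a scavenger receptor of Kupffer cells, went from 3.02 ± 3.03 to 17.4 ± 0.24 FPKM (log2 change 2.46, limma adjusted p = 0.0285), and Csf1r, the receptor for macrophage growth factor, from 9.65 ± 4.67 to 24.1 ± 3.89 FPKM (1.33, adjusted p = 0.0488). Flox/flox replicate 2 was the lowest library both for this sum and for Ccl5, Ccl6, Ccl9 and Cxcl16. Among flox/flox libraries it was the highest for Cxcl1, Cxcl10 and Ccl2. It was also the lowest flox/flox library for every other marker sum except that of cholangiocytes.

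The 9 monocyte and macrophage markers summed to 18.4 to 67.9 FPKM in flox/flox livers and 98.4 to 106 FPKM in HKO liver, with Plac8 (log2 change 1.11, limma adjusted p = 0.0119) and Fcgr1 (1.19, adjusted p = 0.0137) past the test among 3 tested. Fcgr1 averaged under 1 FPKM in flox/flox liver and entered through its HKO values. The 7 neutrophil markers summed to 1.39 to 1.90 FPKM and 11.7, 9.71 and 5.43 FPKM. S100a8, S100a9 and Csf3r were the 3 tested and rose, but each averaged under 1 FPKM in flox/flox liver and entered the test through its HKO values, so that count is a description. By reads, Ly6g had no read in any library and Mpo none in flox/flox. The HKO order of this sum, highest in replicate 1 and lowest in replicate 3, was also that of Cxcl10, Ccl9 and Ccl2.

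T cell markers summed to 0.611 to 1.46 FPKM in flox/flox livers and to 2.04, 6.49 and 4.55 FPKM in HKO liver, with 0 of 9 abundant enough to test. NK cell markers summed to 0.413 to 1.72 FPKM and to 3.23, 12.6 and 5.59 FPKM. Nkg7, a granule protein gene, was higher (log2 change 1.39, limma adjusted p = 0.0412), though it too entered the test through its HKO values. Gzma, also tested, did not pass (limma adjusted p = 0.0933), and its groups overlapped, as did those of Gzmb and Prf1. Ncr1 and Eomes were at 0 in flox/flox and had 5, 2 and 2 and 0, 9 and 5 reads in HKO liver. The T cell and NK cell sums were highest in HKO replicate 2 and lowest in HKO replicate 1, the order of Ccl5. That order was not particular to these lists. The Kupffer, B and plasma cell, sinusoidal endothelial and platelet sums had it too. The B and plasma cell list summed to 1.12 to 3.03 FPKM in flox/flox livers and 3.33 to 6.12 FPKM in HKO liver. Dendritic cell sums (1.88 to 2.58 and 2.54 to 3.55 FPKM) and platelet sums (0.945 to 1.68 and 0.654 to 1.82 FPKM) overlapped, and 0 genes of these 3 lists passed. The part of the immune cell markers in the chemokine levels was not tested.

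Cxcl12 is known from stellate and endothelial cells, and no marker of either list passed as lower. Of 10 stellate cell markers 3 rose (Col3a1, Col1a1 and Lrat, with log2 changes of 1.52, 1.42 and 0.81) and 0 fell, and their sum was 81.9 to 119 FPKM in flox/flox livers and 117 to 154 FPKM in HKO liver. Of 11 sinusoidal endothelial markers 0 passed, at a median log2 change of 0.32, with sums of 38.3 to 107 and 82.2 to 113 FPKM. The most abundant of them, Clec4g, had a log2 difference of -0.09, which turned positive under 3 other scalings. Of the 9 hepatocyte markers 1 fell, the asialoglycoprotein receptor gene Asgr1 (358 ± 27.5 to 207 ± 5.92 FPKM, limma adjusted p = 0.02), and 6 had all HKO libraries below all flox/flox libraries, at a median log2 change of -0.77. Over all features 17.2% were apart as lower, 19.6% as higher, and 6.86% were called lower and 5.95% higher. Cholangiocyte markers summed to 19.2 to 29.1 and 27.4 to 57.4 FPKM, with Sox9, also under 1 FPKM in flox/flox liver, higher (log2 change 1.09, adjusted p = 0.0165). With each of the 6 libraries left out in turn, the called markers named here passed in 0 (Lrat and Nkg7) to 5 (Plac8) of the fits.

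**Figure D4:**
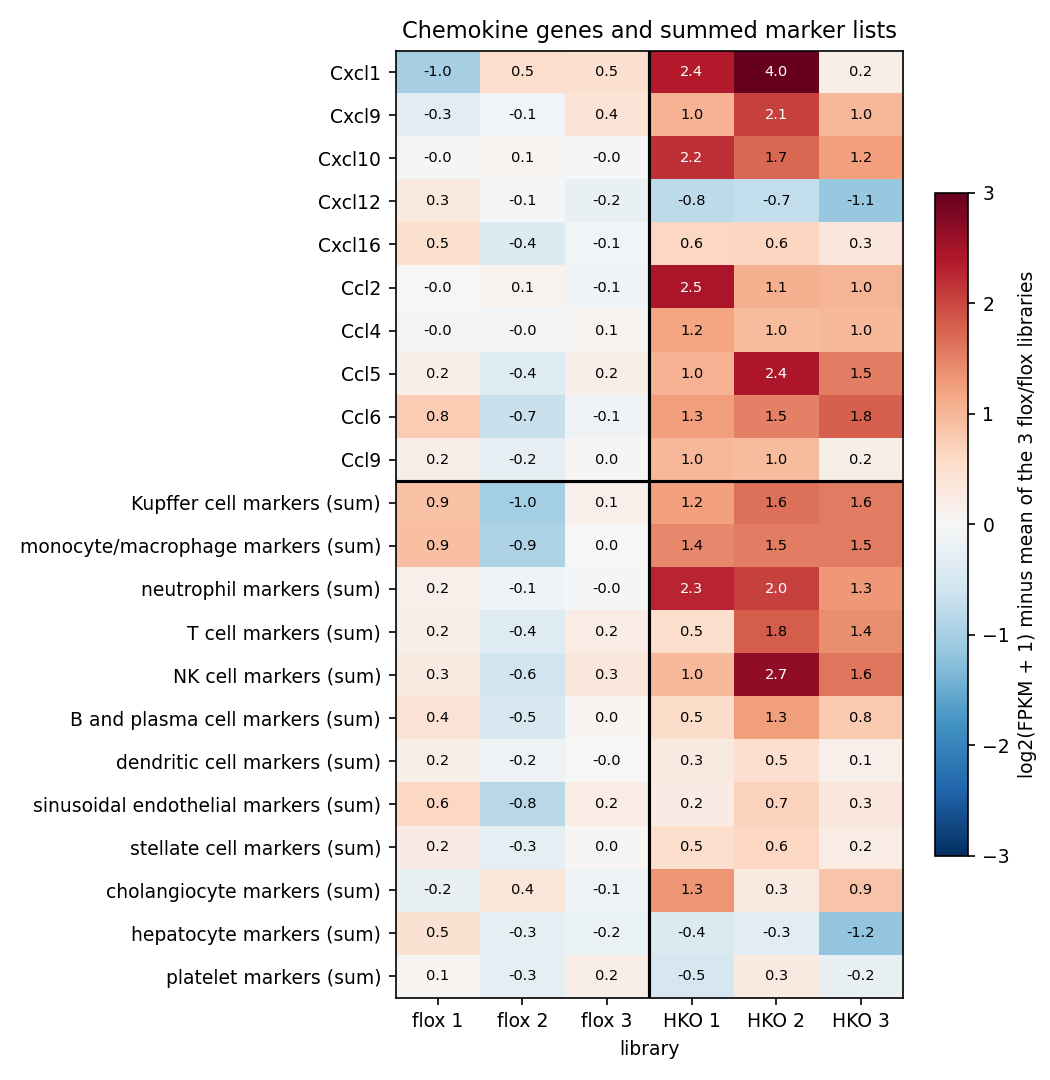
Log2(FPKM + 1) of each chemokine gene, and of each summed marker list, in each library (columns) as the difference from the flox/flox mean, printed in each cell over a colour scale limited to 3 on either side (Cxcl1 in HKO replicate 2 lies above that limit). The HKO columns are high for most chemokine genes and for the Kupffer cell, monocyte, neutrophil, T cell and NK cell lists, and low for Cxcl12 and the hepatocyte list.

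Dividing each chemokine gene by a marker sum of the same library was an alternative scaling, chosen after the data were seen. Ccl6 amounted to 2.23%, 2.46% and 1.81% of the Kupffer sum in flox/flox and 2.54%, 2.29% and 3.02% in HKO liver, with overlapping groups. Ccl5 amounted to 0.263%, 0.296% and 0.428% and to 0.544%, 1.35% and 0.692%, still apart. Cxcl10 amounted to 0.172%, 0.821% and 0.295% and to 1.48%, 0.753% and 0.518%, where flox/flox replicate 2, with its low marker sum, lay inside the HKO range. Cxcl16 was lower by this measure, at 0.906%, 1.39% and 0.889% against 0.807%, 0.622% and 0.501%. In FPKM it was not lower, with means of 2.09 in flox/flox and 3.35 in HKO liver. The Kupffer sum itself was higher in HKO liver, at 445 to 591 FPKM against 91.6 to 349 FPKM in flox/flox. A gene at equal FPKM in all libraries would therefore be lower by this measure. Over the set, 2 genes were higher, 2 lower and 6 overlapped against the Kupffer sum, and 6 were higher, 1 lower and 3 overlapped against the stellate or the endothelial sum. The ratios were not computed over all features, so these counts only describe the set. Counts against the Kupffer sum also carry the rise of that sum. Cxcl12 was lower against each of the Kupffer, stellate and endothelial sums. It stood at 43.4%, 48.8% and 34.9% of the stellate sum in flox/flox and 16.6%, 16.1% and 15.9% in HKO liver.

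**Figure D5:**
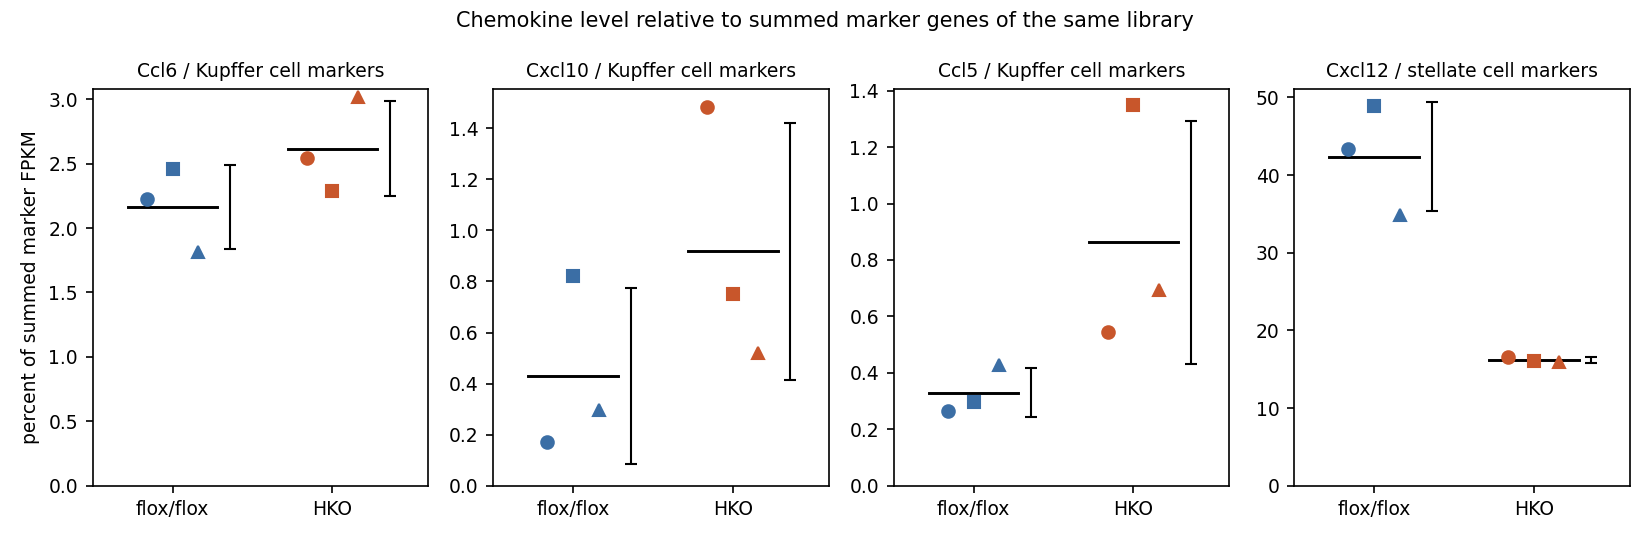
Ccl6, Cxcl10 and Ccl5 as a percent of the summed Kupffer marker FPKM, and Cxcl12 as a percent of the stellate sum, in each library (points), with the mean of each group as a horizontal line and its SD as an error bar. Ccl6 against the Kupffer list overlaps between groups, Ccl5 stays higher in HKO, and Cxcl12 against the stellate list drops from 34.9% or more to 16.6% or less.

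Ccl5, Ccl9, Ccl6 and Ccl4 lie in 1 cluster on chromosome 11 and Cxcl9 and Cxcl10 lie 18558 bases apart on chromosome 5. Among genes within 100000 bases of these clusters that are no chemokines, 4 were tested beside the first, with 0 higher and 1 lower (Wfdc21, log2 change -1.42, limma adjusted p = 0.0165). Beside the second, 4 were tested with 1 higher (Naaa, 0.72, adjusted p = 0.0321) and 0 lower. Over all tested features 5.95% were called higher and 6.86% lower. Of the tested neighbours that did not pass, Wfdc17 had groups apart as higher (log2 difference 1.18). Scarb2 and Nup54 had groups apart as lower (-0.50 and -0.36), and the rest overlapped. Among features with at least 10 reads, 19.6% were apart as higher and 17.2% as lower. All of these neighbours were named after their values were seen. Wfdc21 and Naaa passed in 3 and 1 of the 6 fits with a library left out.

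The genes whose levels ran most like those of Cxcl10 over the 6 libraries, among 9565 protein-coding genes, were Arhgap11a, Hmgb2, Mki67, Cdk1 and Slc22a29, with Pearson r from 0.993 to 0.995. Mki67 and Cdk1 are genes of dividing cells, and each of the 5 rose, by 1.46 and 1.02 on the log2 scale for those named here. For Cxcl12, the most abundant of the set, they were Adam9, Pde3b, Wfdc2, Slc25a3 and Ssr4, with r of 0.996 or more. Of these Pde3b, Wfdc2 and Ssr4 fell, by 0.53, 0.73 and 0.58, and Adam9 and Slc25a3 did not pass. The called genes of both groups passed in 0 to 3 of the 6 fits with a library left out. Arhgap11a, Mki67, Cdk1 and Slc22a29 averaged under 1 FPKM in flox/flox liver and entered the test through their HKO values. These likenesses describe 6 points that share the group difference.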

How the data were processed

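Poly-A RNA was sequenced as paired-end reads in 6 mouse liver libraries. Per the submitters' processing notes the tools were HISAT2 2.0.5, featureCounts 1.5.0-p3 and DESeq2 1.16.1, on genome build GRCm38.p6. The authors deposited 1 table of FPKM per gene, and coordinates are those of that table. FPKM times gene length gave whole reads in every library, within 0.01 read, and the authors' denominator tracked a median-of-ratios size factor. Hence FPKM sums differ between libraries, and rebuilt reads serve here for counting intervals, which cover counting error only.

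FPKM values were transformed as log2(FPKM + 1), so changes of low genes are understated. Features whose mean reached 1 FPKM were fitted with limma 3.58.1 (lmFit, eBayes with trend) in R 4.3.3, for HKO against flox/flox without covariates, two-sided, with Benjamini-Hochberg adjustment over all 11086 tested features and a threshold of 0.05. The fit was tested on simulated data with 1 fixed spread setting for all genes and no planted change in genes near the filter. That test cannot speak for low genes or for libraries that stand apart. Single genes also had an exact permutation test, and the exact counting intervals came from the beta distribution (scipy 1.17.1). Alternatives were another pseudocount, other filters, other scalings, voom on rebuilt reads, a replicate block and leaving out each library, and later the ratio to marker sums.

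The members, gene lists and tests were chosen with earlier results of these data known. Named genes were all 10 chemokine genes, and from each list up to 4 called genes with the largest change. Where a list had none, the most abundant gene could be named. Dpp4, Gzma, Tnfrsf1a, Nfkb1, Ifng, the genes under the filter and the neighbouring or overlapping genes lie outside that rule, and their values were known when they were picked. Likeness was ranked for the called member with the largest change and for the most abundant. Of symbols on several rows the row with the highest mean was kept. A few genes of the receptor and inducer lists are counted in the totals but not reported here.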

Additional observations from a re-analysis of the deposited data

How the results depend on the processing

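The number of chemokine genes called, 6 in the report, was 2 without a filter on low values and 1 with the replicate number as a block. The remaining scalings, pseudocount and fits gave 4 to 8, and leaving out 1 library gave 0 to 4. No chemokine gene reversed in any of the 16 alternatives. Cxcl10 was past the threshold in 13 of them, Ccl5, Ccl6 and Cxcl12 in 8, Cxcl9 in 7, Ccl2 in 5, Ccl9 and Cxcl16 in 3 and Cxcl1 in 0. Over all features the count of 1421 (660 higher, 761 lower) became 510 without a filter, 3317 with a common FPKM sum (3128 higher, 189 lower), 2584 with a common sum that left out the 20 highest genes (2363 higher, 221 lower) and 199 with the replicate block, and leaving out 1 library gave 30 to 1454. Median-of-ratios scaling gave 750 higher and 495 lower, and quantile normalization 650 and 386. Samples with the same replicate number did not deviate together over all tested features (correlations of -0.003, -0.0996 and -0.067). A correlation over all features cannot exclude a pairing that acts on some genes. Whether the replicate numbers pair the libraries was therefore not settled. Among genes named beside the set, the signs that reversed were those of Adam9 (-0.25, to 0.23 with the common sum and 0.13 without the 20 highest genes), Slc25a3 (-0.18, to 0.32, 0.22 and, by quantile normalization, 0.15) and the endothelial marker Clec4g (-0.09, to 0.38, 0.29 and 0.0596, and from -0.44 to 0.14 with 1 library left out, with 0.14, 0.03 and 0.07 without flox/flox replicate 1, flox/flox replicate 3 or HKO replicate 1). Dpp4, at 0.02, ran from -0.05 to 0.11 with 1 library left out. None of these 4 genes had passed the test. The common sums moved the median of all features to 0.34 and 0.26, and the cause of the other shifts was not tested. With 3 libraries a group and 1 to 10 reads in flox/flox for Ccl4 and Ccl2, the size of their change is known only within wide counting intervals.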
